A study of Danio rerio with 6 samples.

Results

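The miRNAs described here are the 4 entries for miR-199 and miR-214 among the 349 known and 65 predicted miRNAs measured in zebrafish ZF4 cells: dre-miR-199-3p, dre-miR-199-3-3p, dre-miR-199-5p and dre-miR-214. They were chosen by name, and 0 other entries of the table carry these names. ZF4 is a cell line of embryonic fibroblasts. Small RNA was sequenced from 3 control samples grown at 28°C for 30 days and from 3 cold acclimation samples, which were kept for as long at 18°C from 1 day after plating. The series labels call the samples of a condition biological replicates, without saying whether they were separate cultures, so the p-values measure the spread between these samples. All samples come from 1 immortal line, and the labels and methods name no transgene. Temperature is the only difference they name. They do not say how the control cells were passaged or at what density they were taken.

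miRNAs guide the silencing complex to messenger RNAs, and each hairpin precursor can yield a mature strand from its 5′ arm (5p) and from its 3′ arm (3p). In vertebrates, one miR-199 hairpin and the miR-214 hairpin lie close together on a non-coding transcript (DNM3OS in mammals) that runs opposite to a dynamin 3 gene, and other miR-199 hairpins lie in other dynamin genes. This transcript is typical of mesenchyme, and in the mouse its loss disturbs skeletal development. In mammalian fibroblasts both miRNAs are linked to activation and fibrosis. In zebrafish embryos miR-214 is known to tune the response of muscle precursors to Hedgehog signals.

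The zebrafish annotation of RefSeq (assembly GRCz12tu, not the build named by the submitters, so it was used for names and neighbours only) matched 4 hairpins. dre-mir-199-1 and dre-mir-214 both lay inside dnm3a with 0 annotated genes between them. dre-mir-199-2 lay inside dnm1a, which there overlaps rabepk, and dre-mir-199-3 lay inside dnm2a. The annotation therefore places only one miR-199 hairpin in the same gene as the miR-214 hairpin. By its name, dre-miR-199-3-3p is the 3p strand of the dre-mir-199-3 hairpin and so lies outside that gene. The name dre-miR-199-3p, like dre-miR-199-5p, does not tell from which hairpins its reads came. The sources used here do not say to which entry a read was given when it fitted more than one, so the split of reads between both miR-199 3p entries is uncertain.

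Values are in TPM, which here means a miRNA's reads scaled to 1000000 miRNA reads in the library, with no length correction. Every library summed to 1000000. The miRNA reads behind this were 13710892 to 14960610 in the controls and 11748241 to 13966282 in the cold acclimation libraries. These reads were inferred from the value of 1 read in each library. The members rested on 3898 reads (dre-miR-214, cold acclimation replicate 2) to 102004 reads (dre-miR-199-5p, control replicate 2), so that counting error alone was at most 1.6% of any member's value. PCR copies are not independent molecules, and this figure covers counting error only. Fewer cells that express a miRNA and less miRNA per cell cannot be told apart in such bulk samples.

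One library has to be named before the results. In control replicate 3, 17 of the 310 tested miRNAs lay lower than the mean of the other control libraries by more than 1 on the log2(TPM + 1) scale and 7 lay higher. The same count for the other libraries was 0 to 6 lower and 0 to 8 higher. The miRNAs tested are those with a mean above 1.5 TPM, and all 4 members were among them. Results are therefore given with and without control replicate 3.

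miR-199 was an abundant miRNA of these fibroblasts, and miR-214 a less abundant one. By mean TPM over the 6 libraries, dre-miR-199-5p ranked 22 and dre-miR-199-3p ranked 25 among the 349 known miRNAs, dre-miR-214 ranked 51 and dre-miR-199-3-3p ranked 55. The last 2 traded places between libraries. dre-miR-214 ranked 35 and 36 in control replicates 1 and 2, 71 in control replicate 3 and 70 to 84 in the cold acclimation libraries, and dre-miR-199-3-3p ranked 47 to 50 in the controls and 64 to 68 in the cold acclimation libraries. Together the 4 members held 1.5% and 1.55% of the miRNA reads in control replicates 1 and 2, and 0.695% in control replicate 3. In the cold acclimation libraries they held 0.609%, 0.647% and 0.612%. Their summed level averaged 12480 ± 4794 TPM in the control libraries against 6230 ± 209 TPM in the cold acclimation libraries (SD, n = 3 each), or 49.9% of the control mean. Every cold acclimation library lay below every control library. By an exact permutation test (two-sided) p was 0.1, which is as low as a design of 3 against 3 can go, and 0.25 after Benjamini-Hochberg adjustment over the 5 sums and ratios compared. Without control replicate 3 the mean difference grew from -6250 to -9014 TPM (exact permutation test, p = 0.1, again the smallest p possible).

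dre-miR-199-3p is the 3′ arm strand, which in many vertebrate cells is loaded as readily as its partner. Its level was 6292, 5568 and 3045 TPM in control replicates 1, 2 and 3, and 2340, 2475 and 2107 TPM in cold acclimation replicates 1, 2 and 3. All cold acclimation libraries were lower than all control libraries, with control replicate 3 the nearest to them. The means were 4968 ± 1705 and 2307 ± 186 TPM (SD, n = 3 each), and the log2 fold change was -1.04 (standard error 0.24, limma, Benjamini-Hochberg adjusted p = 0.00631), so dre-miR-199-3p fell in cold acclimated cells. The call was lost with any library other than control replicate 3 left out (limma adjusted p of 0.0141 to 0.0367) and with no filter on low values (0.0113).

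dre-miR-199-5p, the strand of the 5′ arm, is known in mammalian lung fibroblasts as a repressor of caveolin. It had 6087, 7440 and 2594 TPM in control replicates 1, 2 and 3, and 2884, 3105 and 3176 TPM in cold acclimation replicates 1, 2 and 3. Control replicates 1 and 2 were the highest libraries, but control replicate 3 was below every cold acclimation library, so the groups overlapped. With means of 5373 ± 2500 and 3055 ± 153 TPM (SD, n = 3 each), the log2 fold change of -0.68 (standard error 0.32) did not pass the test (limma adjusted p = 0.102).

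dre-miR-214 had the largest fold difference of the 4. Its level was 1722, 1637 and 456 TPM in control replicates 1, 2 and 3, and 359, 332 and 406 TPM in cold acclimation replicates 1, 2 and 3. The groups did not overlap, but control replicate 3 lay far nearer to the cold acclimation libraries than to the other controls. The means of 1272 ± 708 and 365 ± 37.4 TPM (SD, n = 3 each) differed by a factor of 3.48. The log2 fold change of -1.58 (standard error 0.43) did not pass the threshold of 0.01 used here (limma adjusted p = 0.0122). The study's methods set the same threshold, but for DESeq results.

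dre-miR-199-3-3p was the steadiest member in control cells. It had 896, 846 and 856 TPM in control replicates 1, 2 and 3, and 513, 559 and 435 TPM in cold acclimation replicates 1, 2 and 3. Here control replicate 3 sat between the other controls, and every cold acclimation library was lower than every control library. The means were 866 ± 26.2 and 502 ± 62.3 TPM (SD, n = 3 each), 58.0% of the control level remained, and the log2 fold change was -0.79 (standard error 0.15, limma adjusted p = 0.00260), so this strand fell as well. The limma adjusted p was 0.0134 without control replicate 1 and 0.0152 without cold acclimation replicate 1, within a range of 0.000380 to 0.0152 over all alternatives.

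**Figure D1:**
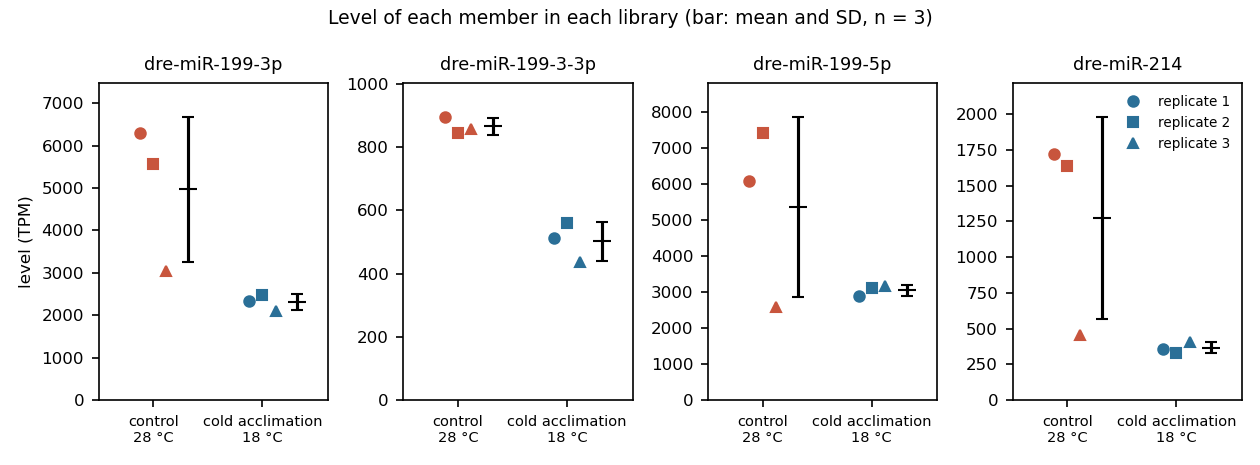
Level in TPM (vertical axes, each from 0) of the 4 members in the 3 control libraries at 28°C and the 3 cold acclimation libraries at 18°C, with circles, squares and triangles for replicates 1, 2 and 3 and black bars for the mean and SD. Control replicate 3 (triangle) has 456 TPM of dre-miR-214 and 2594 TPM of dre-miR-199-5p, far under the other controls, but 856 TPM of dre-miR-199-3-3p, level with them.

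Across the 310 tested miRNAs, 14.5% fell and 16.5% rose at an adjusted p under 0.01 (limma). Of the 4 members, 2 fell and 0 rose. At an adjusted p under 0.05 (limma), 3 members were lower and 0 higher, against 77 lower and 75 higher of all 310. The cold acclimation libraries lay wholly below the control libraries for 3 of the 4 members, and for 28.4% of the tested miRNAs. The median log2 fold change of the 4 was -0.92, against 0.019 for all tested miRNAs. Of the 4, 0 met a fold change above 2.5 together with an adjusted p under 0.01 in this fit. Both thresholds are those of the study, which applied them to DESeq results, whereas limma was used here. dre-miR-214 passed the fold and missed the adjusted p.

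The strands stood unequally low in control replicate 3. Set against the mean of control replicates 1 and 2, it held 27.2% of their dre-miR-214, 38.4% of their dre-miR-199-5p and 51.3% of their dre-miR-199-3p. For dre-miR-199-3-3p, whose name points to the hairpin in dnm2a, it held 98.3%. On the log2(TPM + 1) scale these departures were -1.88, -1.37, -0.96 and -0.02. Ranked from the lowest of the 310 tested miRNAs, they took the places 9, 12, 18 and 151.

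The lowest 3 places in that library belonged to strands of miR-143 and miR-145. miR-143 and miR-145 are processed from a shared transcript and are known from smooth muscle and stromal cells. dre-miR-143 ranked 1, dre-miR-145-5p ranked 2 and dre-miR-145-3p ranked 3, with departures of -3.65, -3.31 and -3.20. The next places were taken by dre-miR-455-5p (-2.38) and by dre-miR-430b-3p (-2.32) and dre-miR-430a-3p (-2.28), of a family known from the early embryo. Of the 11 other strands on the mesenchymal list described further on, 6 were lower in control replicate 3 and 5 were higher, among them dre-miR-152 (0.49) and dre-miR-29b (0.48). These 5 names were chosen after their values were seen. dre-miR-143 had 4765, 4665 and 374 TPM in control replicates 1, 2 and 3, and 2165, 2252 and 1147 TPM in cold acclimation replicates 1, 2 and 3. Its level in control replicate 3 was thus 7.93% of that in the other controls and lay under every cold acclimation library. dre-miR-145-5p had 91.4, 142 and 10.6 TPM in the controls and 43.6, 34.9 and 20.8 TPM in the cold acclimation libraries. dre-miR-145-3p, its partner strand, had 24.3, 23.8 and 1.72 TPM in the controls and 11.01, 13.8 and 6.73 TPM in the cold acclimation libraries. All 3 strands showed the same order of libraries as dre-miR-199-5p in this respect: control replicates 1 and 2 on top and control replicate 3 at the bottom.

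**Figure D2:**
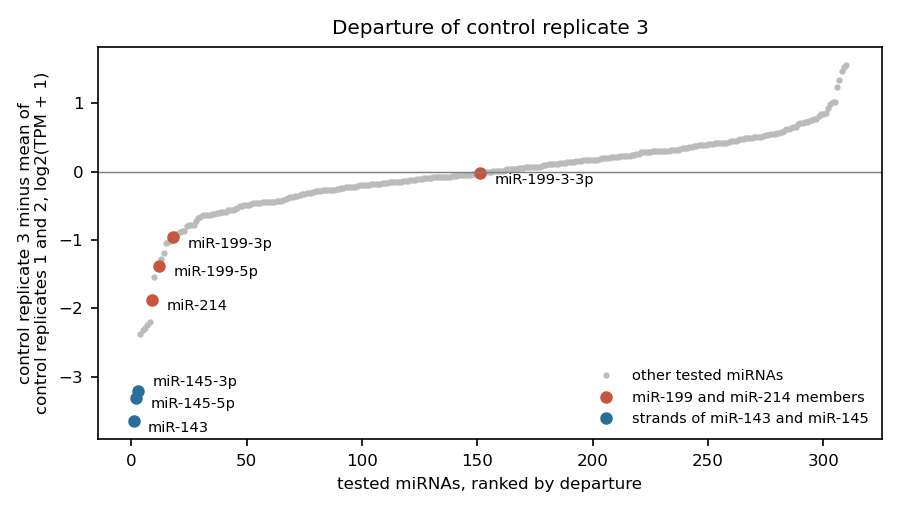
Difference on the log2(TPM + 1) scale between control replicate 3 and the mean of control replicates 1 and 2 (vertical axis) for the 310 tested miRNAs in rank order (horizontal axis), with the 4 members in red and the strands of miR-143 and miR-145 in blue. dre-miR-214 (rank 9), dre-miR-199-5p (rank 12) and dre-miR-199-3p (rank 18) sit in the low tail, and dre-miR-199-3-3p sits near 0 at rank 151.

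Without control replicate 3, with 2 control libraries against 3, all 4 members fell. That library was singled out from these same data. dre-miR-214 and dre-miR-199-5p were themselves among the 17 miRNAs that lay low in it. The p-values of this fit are therefore not independent support for a fall. The 4 log2 fold changes were then -2.20 for dre-miR-214 (standard error 0.15, limma adjusted p = 1.58e-08), -1.36 for dre-miR-199-3p (0.13, 5.65e-07), -1.14 for dre-miR-199-5p (0.13, 2.57e-06) and -0.80 for dre-miR-199-3-3p (0.15, 0.000460). Over all alternatives the adjusted p ran from 1.58e-08 to 0.0510 for dre-miR-214, from 5.65e-07 to 0.0367 for dre-miR-199-3p and from 2.57e-06 to 0.291 for dre-miR-199-5p. dre-miR-214 and dre-miR-199-3p then also passed the fold change of 2.5. Of all 308 miRNAs tested without that library, 22.1% fell and 22.1% rose, and their median log2 fold change was 0.051 against -1.25 for the 4 members. In TPM, cold acclimated cells kept 21.8% of the dre-miR-214, 38.9% of the dre-miR-199-3p, 45.2% of the dre-miR-199-5p and 57.7% of the dre-miR-199-3-3p found in control replicates 1 and 2. Leaving out any other single library called no more than 1 member, which was dre-miR-199-3-3p. Why control replicate 3 differs was not tested.

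**Figure D3:**
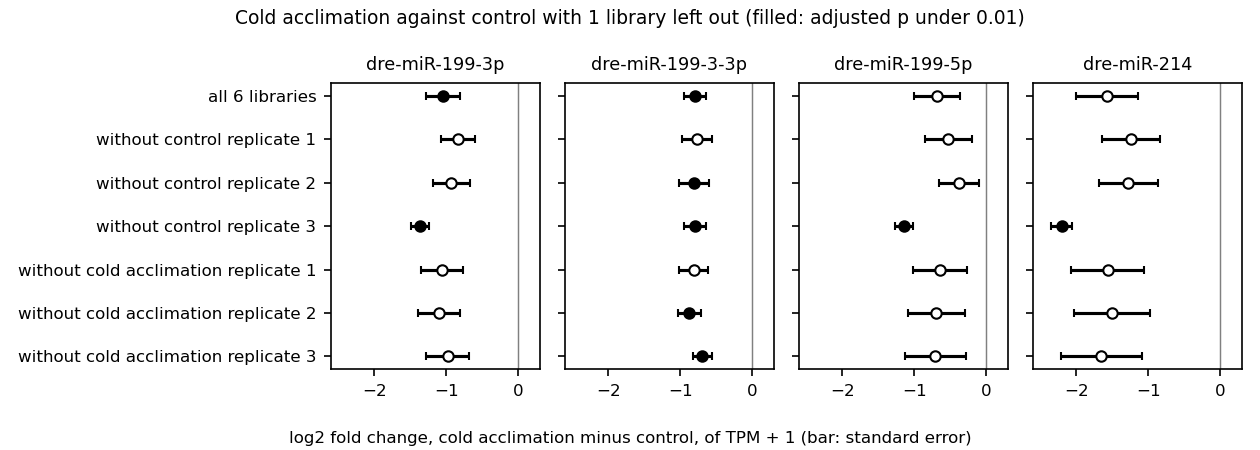
log2 fold change of TPM + 1, cold acclimation minus control (horizontal axis, with standard error bars), for each member with all 6 libraries and with each library left out in turn, filled where the limma adjusted p is under 0.01. All points lie below 0, and only without control replicate 3 are all 4 filled, from -2.20 for dre-miR-214 to -0.80 for dre-miR-199-3-3p.

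The members differed in how evenly they were expressed within a condition. In cold acclimated cells the coefficient of variation over the 3 libraries was 4.99% for dre-miR-199-5p, 8.06% for dre-miR-199-3p, 10.2% for dre-miR-214 and 12.4% for dre-miR-199-3-3p, all under the median of 16.6% over the tested miRNAs. In control cells it was 55.6% for dre-miR-214, 46.5% for dre-miR-199-5p and 34.3% for dre-miR-199-3p, above the median of 17.7%, and 3.02% for dre-miR-199-3-3p. Much of the spread of the first 3 lay in control replicate 3. It held 27.2%, 38.4% and 51.3% of their mean level in control replicates 1 and 2.

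Ratios between members within a library do not depend on how the libraries were scaled. The order of the members changed between libraries. The ratio of dre-miR-199-5p to dre-miR-199-3p was 0.967, 1.34 and 0.852 in control replicates 1, 2 and 3, so that neither strand was the higher one throughout. In the cold acclimation libraries dre-miR-199-5p was the higher strand each time, with ratios of 1.23, 1.25 and 1.51. The mean log2 ratio was 0.046 ± 0.33 for the controls against 0.41 ± 0.16 after cold acclimation (SD, n = 3 each), a difference that did not pass (exact two-sided permutation test, p = 0.3, adjusted p = 0.375 over 5 comparisons). dre-miR-214 stood above dre-miR-199-3-3p in control replicates 1 and 2, and below it in control replicate 3 and in all 3 cold acclimation libraries.

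The balance of dre-miR-214 against dre-miR-199-5p was the one ratio of the 4 in which the conditions did not overlap. This ratio to dre-miR-199-5p was 0.283, 0.220 and 0.176 in control replicates 1, 2 and 3, and 0.124, 0.107 and 0.128 in cold acclimation replicates 1, 2 and 3. All cold acclimation values were lower than all control values, control replicate 3 included. The mean log2 ratio went from -2.17 ± 0.34 to -3.07 ± 0.14 (SD, n = 3 each), a difference of -0.90 with p = 0.1 in the exact two-sided permutation test, the smallest p possible, and 0.25 after adjustment over the 5 comparisons. Without control replicate 3 the difference was -1.06. Against dre-miR-199-3p, the ratio of dre-miR-214 was 0.274, 0.294 and 0.150 in the controls and 0.153, 0.134 and 0.193 in the cold acclimation libraries, so that control replicate 3 lay among the latter. That difference of -0.54 on the log2 scale did not pass (exact permutation test, p = 0.3, adjusted p = 0.375). Without control replicate 3 the difference was -0.84 (exact permutation test, p = 0.1, the smallest p possible). As control replicate 3 was the only control within the cold acclimation range, leaving it out had to separate the conditions.

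dre-miR-199-3-3p amounted to 0.142 and 0.152 of dre-miR-199-3p in control replicates 1 and 2, to 0.281 in control replicate 3, and to 0.219, 0.226 and 0.207 in cold acclimation replicates 1, 2 and 3. The cold acclimation libraries thus lay between the controls, and the log2 difference of 0.25 did not pass (exact permutation test, p = 0.4, adjusted p = 0.4). Without control replicate 3 it was 0.56 and the conditions did not overlap (exact permutation test, p = 0.1, the smallest p possible). Control replicate 3 was the only control above the cold acclimation libraries, so leaving it out had to remove the overlap.

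**Figure D4:**
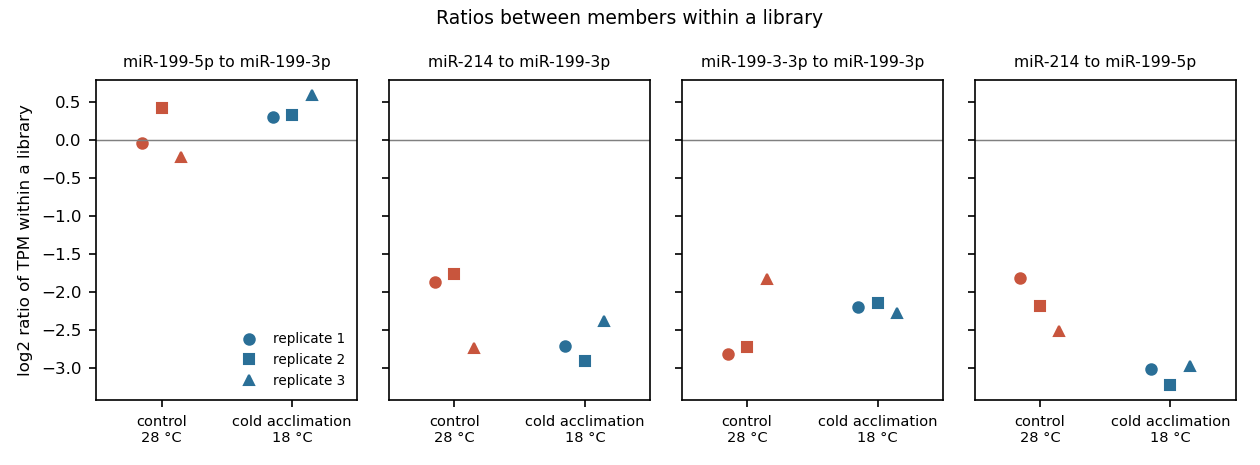
log2 ratio of TPM between members within each library (vertical axis), for control and cold acclimation libraries, with circles, squares and triangles for replicates 1, 2 and 3. The ratio of dre-miR-214 to dre-miR-199-5p is the one of the 4 in which the conditions do not overlap, with means of -2.17 and -3.07.

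The miRNAs whose profiles were most like those of the members were sought among 241 other known miRNAs. Likeness was the root mean square difference over the 6 libraries between log2(TPM + 1) profiles, each centred on its own mean. Closest to dre-miR-199-3p were dre-miR-92b-3p (0.18), dre-miR-734 (0.21) and dre-miR-153b-3p (0.22), against a median of 0.73 over the 241. dre-miR-199-5p was at 0.28 from it and dre-miR-214 at 0.43. Closest to dre-miR-199-5p were dre-miR-734 (0.27), dre-miR-133a-3p (0.28) and dre-miR-10d-5p (0.30). dre-miR-214 was most like dre-miR-187 (0.21), then dre-miR-92b-3p (0.37) and dre-miR-734 (0.45). dre-miR-187 had 10.8, 8.61 and 1.24 TPM in control replicates 1, 2 and 3 and 0.911, 1.02 and 0.788 TPM in cold acclimation replicates 1, 2 and 3. Like dre-miR-214, it was low in control replicate 3, which follows from its choice by likeness over these same libraries. The likeness depends partly on the scale, since adding 1 flattens the profile of so low a miRNA. In TPM its control mean was 7.60 times its cold acclimation mean, against 3.48 times for dre-miR-214. dre-miR-734 (2.48 to 11.5 TPM) and dre-miR-133a-3p (1.87 to 5.21 TPM) were low as well.

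dre-miR-199-3-3p had other neighbours. They were dre-miR-16c-3p (0.051), dre-miR-125c-3p (0.10) and dre-miR-107b (0.11), and the other members were at 0.34 (dre-miR-199-3p), 0.48 (dre-miR-199-5p) and 0.76 (dre-miR-214), where the median over the 241 was 0.53. dre-miR-16c-3p, a partner strand of a miR-16, had 273, 288 and 279 TPM in control replicates 1, 2 and 3 and 166, 179 and 146 TPM in cold acclimation replicates 1, 2 and 3. It shared the even controls and the lower cold acclimation libraries with dre-miR-199-3-3p, which follows from its choice by likeness over these same libraries.

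With all libraries, 14.5% of the 310 tested miRNAs fell and 16.5% rose. Of 14 tested mesenchymal strands outside the cluster, those of miR-143 and miR-145 included, 1 fell and 0 rose. At an unadjusted p under 0.05 (limma), 2 of these 14 were lower and 1 higher. Of all 310 tested miRNAs, 77 were lower and 75 higher even at the stricter adjusted p under 0.05 (limma). The median log2 fold change of the 14 strands was -0.062. The one that fell was dre-miR-455-3p, of a miRNA known from cartilage, with 82.8, 94.5 and 79.9 TPM in the controls and 42.2, 61.4 and 42.5 TPM in the cold acclimation libraries (log2 fold change -0.82, limma adjusted p = 0.00947). dre-miR-140-3p, also of cartilage, averaged 1254 ± 44.1 TPM in the controls against 875 ± 109 TPM after cold acclimation (SD, n = 3 each), and its log2 fold change, -0.53, did not pass (limma adjusted p = 0.0148). dre-miR-21, the most abundant miRNA of the table, had a log2 fold change of 0.016. The log2 fold changes of dre-miR-143, dre-miR-145-5p and dre-miR-145-3p were -0.19, -0.71 and -0.11, and none passed with all libraries (limma adjusted p = 0.890, 0.465 and 0.928). Control replicate 3 was the library in which these strands ranked lowest. Without it the log2 fold changes were -1.41, -1.82 and -1.17 and all 3 fell (limma adjusted p = 7.23e-05, 7.23e-05 and 0.00187). Since these 3 strands were the lowest in the library left out, these p-values are not independent support for a fall. In that fit 5 of the 14 strands fell, those of miR-143 and miR-145 among them, and 0 rose, with a median of -0.20. Of all 308 miRNAs tested in it, 22.1% fell and 22.1% rose.

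The fibroblast label was set against miRNAs of other cell types, listed by name. Summed over each list, the control and cold acclimation libraries held 106 to 203 and 104 to 140 TPM of 14 epithelial strands, led by dre-miR-141-3p. They held 274 to 470 and 396 to 706 TPM of 8 neural strands, led by dre-miR-138-5p, and 170 to 212 and 273 to 390 TPM of 5 liver and pancreas strands, nearly all dre-miR-375. Blood miRNAs (8 strands, led by dre-miR-451) came to at most 8.14 TPM, endothelial ones (4, led by dre-miR-126a-5p) to at most 9.02 TPM and muscle ones (6, led by dre-miR-133a-3p) to at most 6.75 TPM in any library, and 0 strands of these lists were absent from all libraries. The members alone summed to at least 6095 TPM in every library. With all libraries, dre-miR-375 rose (log2 fold change 0.85, limma adjusted p = 0.00580). Only 7 epithelial, 5 neural, 2 liver and pancreas, 2 blood, 2 endothelial and 1 muscle strands were tested. The rest of these lists lay under the filter on low values. No other tested strand passed. At an unadjusted p under 0.05 (limma), 2 strands were higher, dre-miR-375 among them, and 3 were lower. All 310 tested miRNAs gave 75 higher and 77 lower even at the stricter adjusted p under 0.05 (limma). The lists do not hold every strand of these tissues. Outside them, the following were chosen after their values were seen. The neural strands dre-miR-124-4-5p (log2 fold change 3.11, limma adjusted p = 3.31e-06), dre-miR-132-3p (0.99, 0.00694), dre-miR-132-5p (0.88, 0.00581) and dre-miR-129-5p (0.87, 0.00947) rose. So did dre-miR-192 of liver and gut (0.68, 0.00731). In contrast dre-miR-7a, also known from neural cells, fell (-1.01, 0.00260). The names above are not all that rose, and dre-miR-212-5p did so too (1.41, limma adjusted p = 0.000502), while dre-miR-212-3p did not pass (1.05, 0.0109). Some other strands of these tissues did not pass either. Among them were dre-miR-7b (-0.30, limma adjusted p = 0.257), dre-miR-128-3p (0.37, 0.0867), dre-miR-218a (-0.18, 0.462) and, of liver and gut, dre-miR-194a (0.31, 0.234). These names were picked by hand and are not complete, so they do not show whether neural or gut miRNAs changed as a group. dre-miR-124-4-5p was near the floor in the controls, with a mean of 0.301 TPM against 10.3 TPM in the cold acclimation libraries. dre-miR-124-3p, which is on the neural list, lay under the filter on low values and was not tested.

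Some of these sums differed between libraries, without a common pattern. In control replicate 3 the epithelial strands reached their highest sum, 203 TPM against 106 and 130 TPM in control replicates 1 and 2, and the blood strands 8.14 TPM against 4.48 and 4.38 TPM. The endothelial strands were lowest there, at 4.62 TPM against 9.02 and 8.75 TPM. The muscle strands summed to 4.14 to 6.75 TPM in the controls and 2.89 to 3.4 TPM in the cold acclimation libraries. Their part in the levels of miR-199 and miR-214 was not tested.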

How the data were processed

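Small RNA libraries were made with the TruSeq Small RNA kit and read from one end for 50 bases. The authors kept clean reads of 17 to 35 nt, aligned them with Bowtie2 2.3.0 to zebrafish miRNAs (miRBase 22) and used miRCat to predict others. The deposited values are reads per 1000000 miRNA reads (CPM in unit, named TPM by the authors). They are whole multiples of 1 read, worth 0.0668 to 0.0851 TPM, and were analysed as normalized values.

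The test was limma 3.58.1 (R 4.3.3; lmFit, then a trended eBayes) on log2(TPM + 1), over 310 miRNAs whose mean exceeded 1.5 TPM, with Benjamini-Hochberg adjustment. Rise and fall mean an adjusted p under 0.01. The fold is on the log2(TPM + 1) scale, which understates changes of low miRNAs. The fit was also tested on simulated data. For sums and ratios the test was an exact permutation over libraries, two-sided. Figures were drawn with matplotlib 3.10.9.

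The members and the 8 lists of other miRNAs were chosen with earlier results of these data known. The members, the 3 most alike to each and the strands of miR-143 and miR-145 were named by a set rule. So were the leading one of each list and, of the mesenchymal list, the 2 with the smallest adjusted p. The other miRNAs given with a departure or a fold change were chosen after their values were seen. miRNAs that share a seed with a member were to be named too, but sequences were not used here. Alternatives were other pseudocounts, filters, scalings and thresholds, a replicate block and each library left out. 0 columns were unused and 0 pairs of libraries were identical.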

Additional observations from a re-analysis of the deposited data

How the results depend on the processing

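All 4 members kept a log2 fold change below 0 in each alternative run. For dre-miR-199-3p the adjusted p was 0.0113 with no filter (log2 fold change -1.04). For dre-miR-214 the unchanged adjusted p of 0.0122 (-1.58) passed a threshold of 0.05, and totals without dre-miR-100-5p or dre-let-7a gave -1.73 (0.00873). With a library left out, the log2 fold change lay between -1.36 and -0.84 for dre-miR-199-3p, -0.87 and -0.69 for dre-miR-199-3-3p, -1.14 and -0.38 for dre-miR-199-5p, and -2.20 and -1.25 for dre-miR-214. The number of miRNAs that rose then lay between 24 and 68, and the number that fell between 18 and 68, against 51 and 45. Taking the clean reads the study states as library sizes gave 32 and 76, and a threshold of 0.05 gave 75 and 77. The median of all tested miRNAs shifted by -0.26 with clean reads and by -0.13 with the totals that lack these miRNAs. Relative to that median the members had -0.74 (dre-miR-199-5p) to -1.63 (dre-miR-214) with clean reads, and -0.73 to -1.62 with the totals that lack them. With median-of-ratios scaling 51 rose and 67 fell, and with the totals that lack dre-miR-100-5p or dre-let-7a 37 rose and 64 fell.

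The labels do not say whether the replicate numbers pair the samples. Deviations of same-numbered libraries correlated at 0.015, 0.142 and 0.060 over the 310 miRNAs. Those of differently numbered libraries correlated at -0.089 to 0.009. These small values do not settle whether the samples were paired. With a replicate block the adjusted p was 0.00700 for dre-miR-199-3p, 0.00793 for dre-miR-199-3-3p, 0.105 for dre-miR-199-5p and 0.0224 for dre-miR-214, and 39 miRNAs rose and 30 fell. No call of a member changed. edgeR, DESeq2 and TMM scaling on the whole reads behind the values were planned and not run, so that no count test stands beside limma. The sum of the members and the 4 ratios kept their direction in all alternatives. With 3 libraries a condition no exact test could reach 0.05.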
